A study of Mus musculus with 12 samples.

Results

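The genes described here are 48 genes of DNA replication and mitosis, measured by 63 probes whose gene name on the array is one of the 48, out of 36406 gene names and 55681 probes in all. They were chosen by name and role, with earlier results of these data known. By role, 21 were set down as S-phase genes, 22 as mitotic genes, 2 (Ccna2 and Mybl2) as acting in both phases and 3 (Wee1, Chek1 and Chek2) as checkpoint genes. Mouse embryonic stem cells of 3 groups were compared, with 4 arrays of total RNA in each group, and the labels call the 4 samples of a group independent biological samples. WT cells were wild type, and Id1KO cells were an Id1 knockout line. Id1KO_Zrf1KD cells were the Id1 knockout cells after lentiviral shRNA against Zrf1 and selection with puromycin, so they carry the Id1 knockout too. All cells grew in medium with serum and leukaemia inhibitory factor. No label names more than 1 line per genotype, and no group is said to carry a control hairpin, so the knockdown cannot be told apart from infection and selection.

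Cells license their replication origins in G1, when the origin recognition complex, Cdc6 and Cdt1 load the MCM helicase onto DNA. They fire these origins in S phase, and then turn to cyclin B, Plk1 and the Aurora kinases to enter mitosis. Many S-phase genes are targets of E2F transcription factors. Many mitotic genes are controlled through CCAAT boxes bound by NF-Y and through a cell cycle element, the CHR, bound by the DREAM and B-Myb complexes. Mouse embryonic stem cells cycle fast with a short G1 phase and express many of these genes at high level through much of the cycle. In RNA from a whole culture, fewer cells in a phase and less RNA per cell cannot be told apart.

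The 250 bases before the start site are shown for 4 genes, to set the S-phase promoters beside the mitotic ones. Sequences are from RefSeq on GRCm38.p6, whose table matched 38 of the 48 genes, 17 of S phase and 18 of mitosis. Mcm6 (chr1:128359706-128359955, minus strand) and Mcm5 (chr8:75109259-75109508, plus strand) encode subunits of the replicative helicase, while cyclin B2 (Ccnb2, chr9:70421555-70421804, minus strand) and the anaphase activator Cdc20 (chr4:118437344-118437593, minus strand) act in mitosis. All are written 5′ to 3′ along the gene, with capitals for matches on either strand to E2F-like, CCAAT and CHR letters. The first of the E2F-like motifs searched was TTTGGCG. The second motif of this kind was TTTCCCG. The third motif of this kind was TTTCGCG. The fourth motif of this kind was TTTGCGC. A box on the opposite strand appears as ATTGG. The first of the CHR motifs searched was TTTGAA, and the second of the CHR motifs was TTCGAA.
Mcm6: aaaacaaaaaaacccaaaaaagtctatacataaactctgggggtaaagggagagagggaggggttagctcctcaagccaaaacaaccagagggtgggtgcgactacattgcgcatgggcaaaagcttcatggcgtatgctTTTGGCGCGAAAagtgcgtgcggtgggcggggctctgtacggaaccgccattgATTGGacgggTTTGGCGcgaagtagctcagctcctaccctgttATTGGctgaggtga
Mcm5: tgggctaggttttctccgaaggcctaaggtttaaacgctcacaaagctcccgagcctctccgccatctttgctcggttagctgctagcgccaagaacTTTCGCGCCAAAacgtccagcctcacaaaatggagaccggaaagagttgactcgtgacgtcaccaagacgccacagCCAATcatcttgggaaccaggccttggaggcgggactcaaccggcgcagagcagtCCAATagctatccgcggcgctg
Ccnb2: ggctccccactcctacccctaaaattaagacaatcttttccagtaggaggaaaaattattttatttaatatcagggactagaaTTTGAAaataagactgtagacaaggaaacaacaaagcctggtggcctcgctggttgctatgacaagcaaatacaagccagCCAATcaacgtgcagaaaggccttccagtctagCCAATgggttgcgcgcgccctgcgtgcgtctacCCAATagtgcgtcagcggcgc
Cdc20: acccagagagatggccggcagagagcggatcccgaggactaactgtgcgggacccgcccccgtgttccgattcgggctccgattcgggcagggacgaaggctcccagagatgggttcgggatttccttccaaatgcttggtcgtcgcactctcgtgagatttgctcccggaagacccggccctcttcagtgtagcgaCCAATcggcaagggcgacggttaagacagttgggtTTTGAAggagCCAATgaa
The first listed promoter of each gene was read, and whether its start is the main start of the gene was not examined. E2F-like letters stood in 6 of the 17 S-phase promoters (35.3%) and 1 of the 18 mitotic ones (5.56%), against 5.91% of all 27025 genes. In the Mcm6 promoter they occurred 3 times and in the Mcm5 promoter 2 times, with overlap between neighbouring matches in both. No other promoter of these genes held more than 1, so the S-phase promoters shown are the richest in such letters. CCAAT stood in 12 of 17 S-phase promoters (70.6%), 16 of 18 mitotic ones (88.9%) and 34.5% of all genes. The Ccnb2 promoter held it 3 times, beginning 87, 54 and 21 bases before the start. CHR letters were found in 2 of 17 S-phase promoters (11.8%), 7 of 18 mitotic ones (38.9%) and 17.4% of all genes. Among the mitotic ones was that of Cdc20, 18 to 13 bases before the start. TTCGAA reads the same on both strands and was counted once. A match describes letters in this window and shows no binding. The promoters of Mcm4, Ccna2, Cdc25c, Gmnn, Incenp, Kif20a, Pole, Wee1, Aurkb and Ccne2 were not analysed here.

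Levels below are log2 of the background-corrected signal minus the 75th percentile of the same array, so 0 is the level of that percentile, and they compare the groups for 1 probe, not 1 gene with another. Of the 48 genes, 46 were measured well above background on all 12 arrays and tested. Ccne2, a cyclin of S-phase entry, and Aurkb, the kinase of the chromosomal passenger complex, had 1 probe each, which was not well above background on any array. Differences are log2 fold changes, tested with limma over 22593 genes, and a gene is called higher or lower where its Benjamini-Hochberg adjusted p is under 0.05. The share of spots above background was 54.8% to 59.3% per array, and no spot was saturated. The 75th percentile itself lay between 393 and 492 units of signal in Id1KO, 441 and 550 in WT, and 554 and 596 in Id1KO_Zrf1KD. Each of the 3 slides held all 3 groups, and every gene of the 46 that was called kept its direction within each slide.

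Zrf1 is listed on the array as Dnajc2. WT averaged 2.0 ± 0.12 (SD, n = 4) and Id1KO 1.89 ± 0.11, against -0.27 ± 0.08 after knockdown, a log2 change from Id1KO of -2.16 (adjusted p = 9.7e-10). The Id1 probe read 0.86 in WT and 1.23 in Id1KO, a difference of 0.37 (adjusted p = 0.052), and since no source used here says where the deleted part lies, the probe does not check the knockout. The Y-linked gene Ddx3y was well above background on 0 of the WT arrays and on all 4 Id1KO and all 4 Id1KO_Zrf1KD arrays. The Id1 knockout and other differences between the WT and Id1KO lines cannot be told apart. All 12 embryonic stem cell markers examined were above background in every group.

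The first comparison, Id1KO against WT, sets the line labelled as an Id1 knockout beside wild type. Thymidylate synthase (Tyms) and the spindle checkpoint gene Mad2l1 were more than 2-fold higher in Id1KO at the main scaling, and Pcna, Chek2 and Gmnn were 1.54 to 1.56-fold higher. The phosphatases Cdc25b and Cdc25c, the transcription factor E2f1, the polymerase gene Pola1, the licensing gene Cdt1 and the helicase genes Mcm2 to Mcm6 were lower, Mcm3 by its brighter probe only. In all, 34 of the 46 genes differed, 73.9%, against a background of 72.0% of all genes tested. Of these 34, 13 were higher, 28.3% of the 46 against 42.5% of all genes, and 21 were lower, 45.7% against 29.6%. With quantile normalization the split was 8 higher and 28 lower, 17.4% and 60.9%, against 35% and 34.8% of all genes. With the deposited values it was 7 and 27, 15.2% and 58.7%, against 35% and 34.3%. The values of the groups did not overlap for 31 of the 46 genes (67.4%), against 65.1% of all genes.

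Most changes in these genes were under 2-fold. Only Tyms and Mad2l1 passed the test with at least a 2-fold change, 4.35% of the 46, against 19.6% of all genes and 16.6% of the 19268 genes that were well above background on all 12 arrays. With the deposited values neither reached 2-fold, at 0.92 for Tyms and 0.9975 for Mad2l1 on the log2 scale, where 9.82% of all genes did. The median absolute log2 fold change was 0.29 over the 46 and 0.52 over all genes. The signed median was -0.12 over the 46 and 0.15 over all genes, and this shift of all genes was 0.01 with quantile normalization or the deposited values.

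The second comparison, Id1KO_Zrf1KD against Id1KO, asks what the knockdown of Zrf1 adds in the line labelled as an Id1 knockout. It shares the Id1KO arrays with the first comparison, so a shift of those arrays would enter both with opposite sign. A fall in the first and a rise in the second are thus not separate results. Cdc25a, Mcm4, Nek2, Cdc6 and Plk1 were 1.45 to 1.66 times higher after knockdown, and Gmnn, Prim1, Bub1, Chek2 and Cenpf were 1.49 to 1.92 times lower. Of the 46 genes 36 differed, 78.3%, against 72.1% of all genes. In this comparison 26 were higher, 56.5% against 32.3% of all genes, and 10 were lower, 21.7% against 39.8%. With quantile normalization 27 were higher and 7 lower, 58.7% and 15.2%, against 36.5% and 32.9% of all genes. With the deposited values these were 27 and 8, 58.7% and 17.4%, against 35.4% and 33.6%. Groups did not overlap for 33 of the 46 (71.7%), against 66.4% of all genes. The largest change was that of Gmnn, 1.92-fold, so none reached 2-fold at the main scaling, as 20.4% of all genes and 16.3% of genes above background on all arrays did, while Gmnn, at -1.002 on the log2 scale, and 18.5% of all genes passed it with quantile normalization. The median log2 fold change was 0.20 over the 46 and -0.09 over all genes, and the median absolute change 0.28 and 0.50.

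Markers of other cell types moved in the same comparison. All 22 fibroblast markers were higher after knockdown, where 32.3% of all genes were, with a median log2 fold change of 1.96. Their levels were summed on a linear scale, in units of the 75th percentile of the array. The sum was 262 to 270 in Id1KO_Zrf1KD, 112 to 116 in Id1KO and 128 to 139 in WT. All 20 endoderm markers were higher too, with summed levels of 455 to 467, 148 to 152 and 256 to 269. In WT and Id1KO the fibroblast markers Col5a2 and Lum were not well above background on any array. Among the endoderm markers, Afp and Ttr were not either in WT, nor was Afp in Id1KO. Col5a2, Lum and Afp were thus kept for testing only through their Id1KO_Zrf1KD signal, so their being higher there was partly fixed in advance. The summed level of the 12 stem cell markers was 1030 to 1052 in Id1KO_Zrf1KD, 1148 to 1341 in Id1KO and 1100 to 1246 in WT. Of these 12, 6 were called higher and 4 lower after knockdown (median 0.09), where 32.3% and 39.8% of all genes were. In Id1KO_Zrf1KD against WT 5 were higher and 5 lower (median -0.13), where 32.4% and 32.2% of all genes were. The part of other cell types in the results for the replication and mitosis genes was not tested.

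Id1KO_Zrf1KD against WT sets both changes beside the starting cells, and it shares its arrays with the other comparisons. Tyms, Cdc20, Mad2l1 and Wee1 were the genes furthest above WT, and Pola1, Cdc25b and Cenpf the furthest below. Of the 46 genes 30 differed, 65.2%, against 64.6% of all genes, 18 of them higher (39.1% against 32.4%) and 12 lower (26.1% against 32.2%). With quantile normalization or the deposited values 13 were higher and 17 lower, 28.3% and 37.0%, against 30.2% and 33.2% or 29.0% and 33.8% of all genes, so which direction held more genes depends on the scaling. Groups did not overlap for 30 of the 46 (65.2%, against 60.3% of all genes). These counts use the brightest probe of each gene. Tyms alone was called with at least a 2-fold change, 2.17% of the 46, against 17.9% of all genes and 13.1% of those above background on all arrays. That set also depends on the scaling. It was Tyms and Pola1 with quantile normalization and Cdc25b and Pola1 with the deposited values, and with normexp background correction it was empty (0.67 for Tyms), against 17.2%, 8.14% and 8.1% of all genes.

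**Figure D1:**
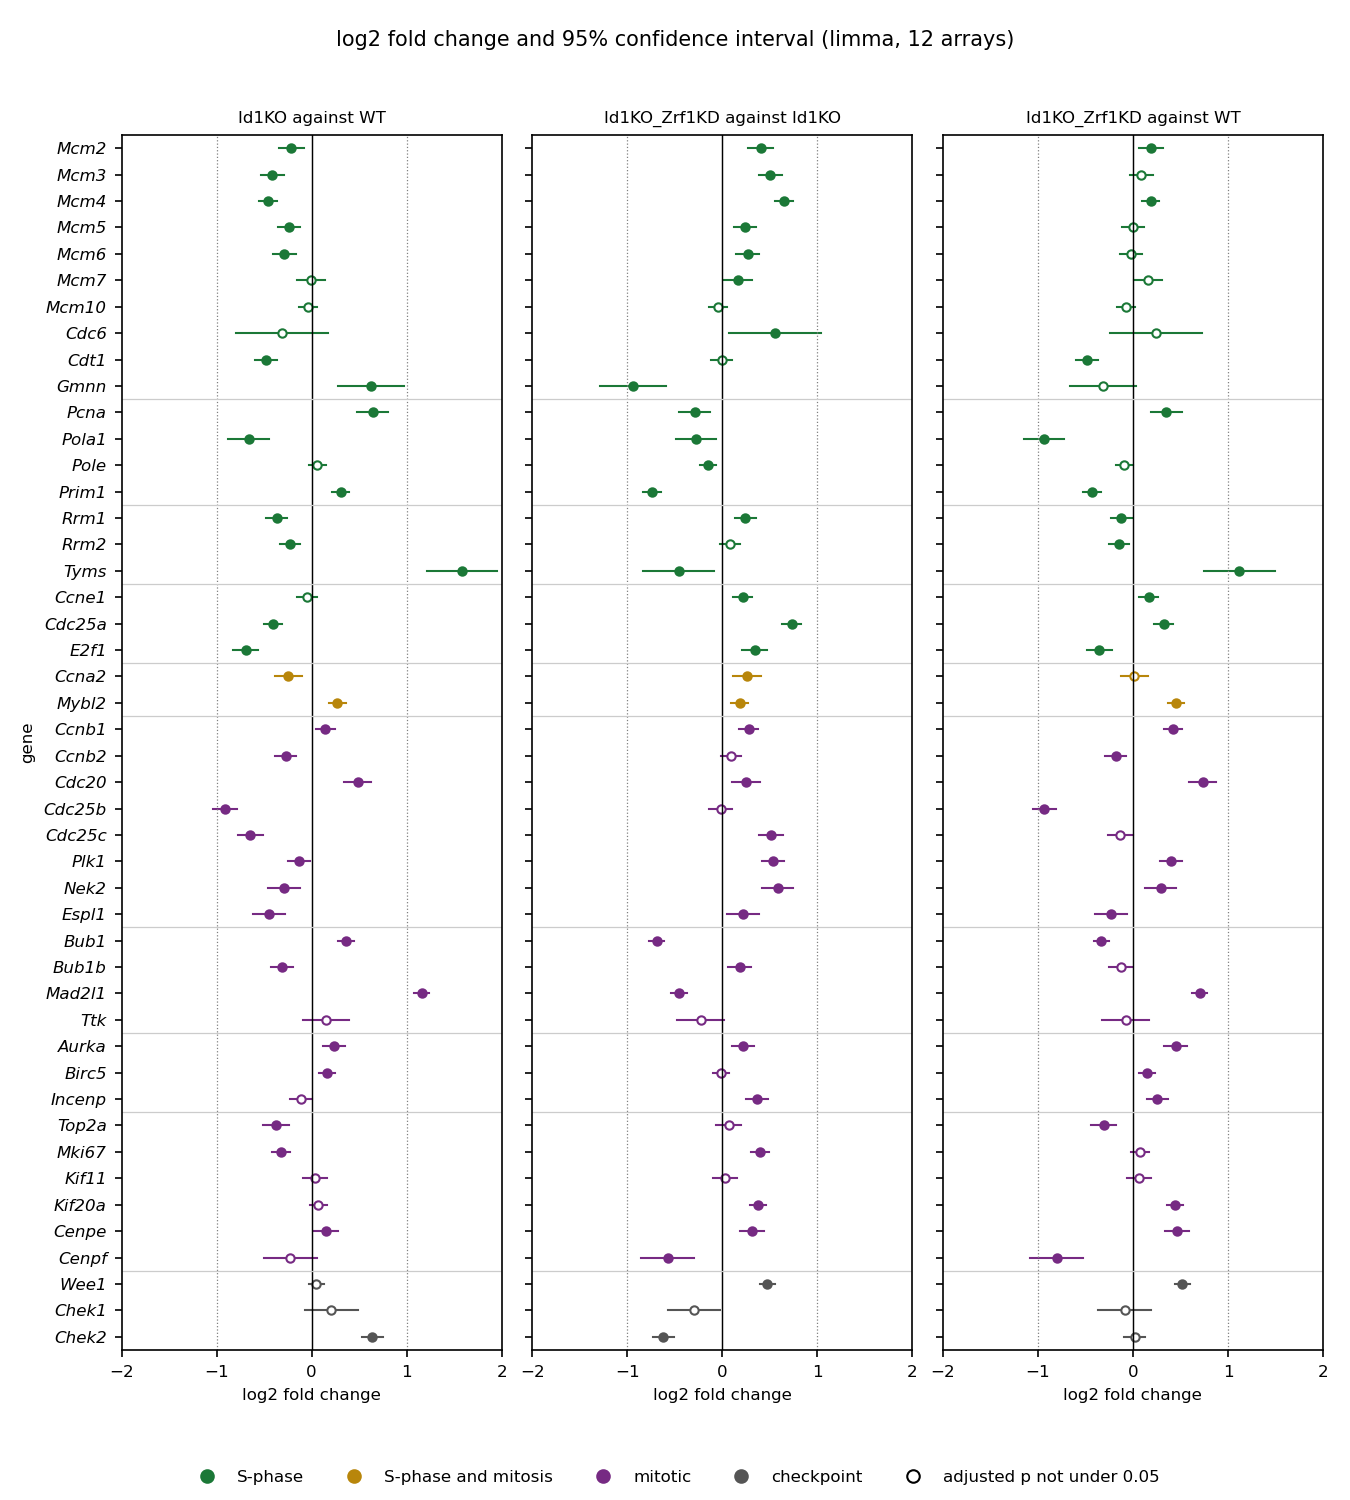
Log2 fold change of each of the 46 genes (points) with its 95% confidence interval (lines) in 3 comparisons of 4 against 4 arrays, coloured by class and grouped by role, with open points where the adjusted p is not under 0.05 and dotted lines at a 2-fold change. In Id1KO against WT 21 genes are called lower and 13 higher, in Id1KO_Zrf1KD against Id1KO 10 lower and 26 higher, and at this scaling only Tyms and Mad2l1 pass a 2-fold change.

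Set side by side, S-phase and mitotic genes gave the following counts. All genes, the background for these counts and for those by role, were called higher and lower in 42.5% and 29.6% of cases in Id1KO against WT, 32.3% and 39.8% after knockdown, and 32.4% and 32.2% in Id1KO_Zrf1KD against WT. In Id1KO against WT, 4 of the 20 S-phase genes tested were higher, 11 lower and 5 not called, and the median log2 fold change was -0.23. Of the 21 mitotic genes 7 were higher, 9 lower and 5 not called, with a median of -0.11. Relative to the median of all genes, these medians were -0.38 and -0.26, and they were -0.41 and -0.29 with quantile normalization. After knockdown, 11 S-phase genes were higher, 6 lower and 3 not called (median 0.19), and 12 mitotic genes were higher, 3 lower and 6 not called (median 0.22). Against WT, the Id1KO_Zrf1KD arrays had 6 S-phase genes higher and 6 lower (median -0.01), and 10 mitotic genes higher and 6 lower (median 0.07). The medians of this last comparison were -0.11 and 0.02 with quantile normalization, while the deposited values gave -0.11 and 0.0025. Whether the classes differ from each other was not tested.

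The median over the genes of a class, taken on each array as the difference from the WT mean of each gene, showed how the arrays spread. For S-phase genes it was -0.06 to 0.07 on the WT arrays, -0.31 to -0.12 on the Id1KO arrays and -0.05 to 0.03 on the Id1KO_Zrf1KD arrays. For mitotic genes the ranges were -0.02 to 0.02, -0.11 to -0.02 and 0.07 to 0.16. At this scaling, in both classes the 4 Id1KO arrays were below every WT array, and for mitotic genes the 4 Id1KO_Zrf1KD arrays were above every WT array. For mitotic genes WT and Id1KO almost touched, with the lowest WT array at -0.0183 and the highest Id1KO array at -0.0199.

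**Figure D2:**
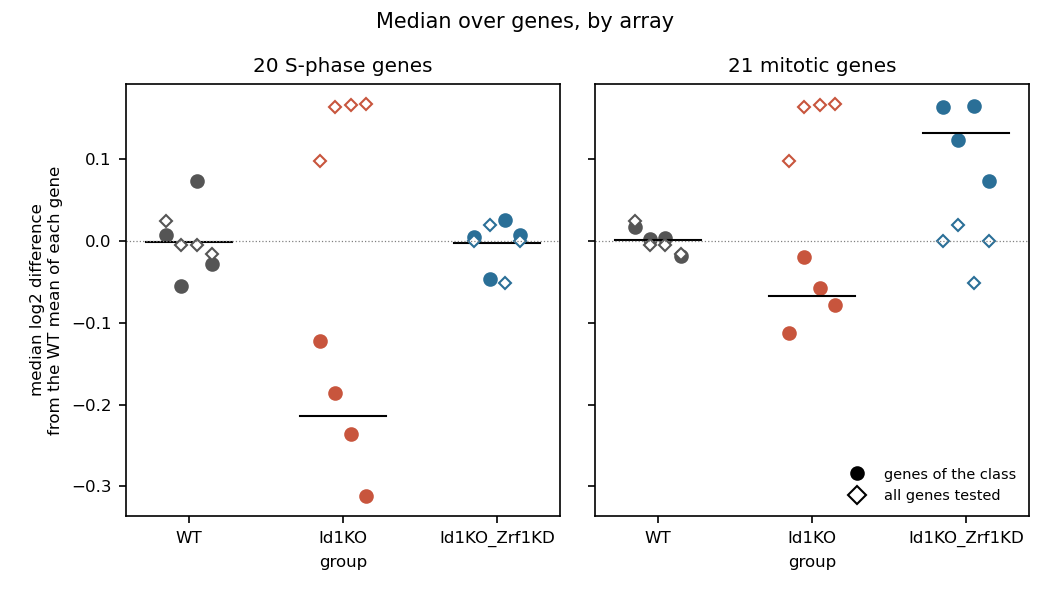
Median log2 difference from the WT mean of each gene, by array, for 20 S-phase and 21 mitotic genes (filled points, with the group mean as a line) and for all genes tested (open diamonds). The Id1KO arrays lie from -0.31 to -0.12 for S-phase genes and from -0.11 to -0.02 for mitotic genes, while the medians of all genes on the same arrays lie above 0.

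Licensing and helicase genes were mostly lower in Id1KO and higher after knockdown, in comparisons that share the Id1KO arrays. Of 10 tested, 1 was higher and 6 lower in Id1KO against WT, and 7 were higher and 1 lower in Id1KO_Zrf1KD against Id1KO, where 42.5% and 29.6%, and 32.3% and 39.8%, of all genes were. Mcm2 to Mcm7 encode the 6 subunits of the ring-shaped replicative helicase. The Mcm4 levels were 6.08, 6.06, 6.18 and 6.06 in WT, 5.67, 5.60, 5.62 and 5.63 in Id1KO and 6.34, 6.25, 6.25 and 6.27 in Id1KO_Zrf1KD. The 3 groups did not overlap, with Id1KO lowest and Id1KO_Zrf1KD highest, and the differences were -0.46 (SE 0.04, adjusted p = 1.7e-06) for Id1KO against WT and 0.65 (SE 0.04, adjusted p = 1.2e-07) for knockdown against Id1KO. Mcm2 followed the same order, at 4.23, 4.10, 4.14 and 4.21 in WT, 4.10, 4.0, 3.86 and 3.87 in Id1KO and 4.41, 4.33, 4.35 and 4.34 in Id1KO_Zrf1KD. Its log2 fold changes were -0.21 (SE 0.06, adjusted p = 0.0064) and 0.40 (SE 0.06, adjusted p = 7.8e-05). Id1KO_Zrf1KD stood above WT by 0.19 for Mcm4 and 0.19 for Mcm2, calls lost under quantile normalization (0.09 and 0.06) and in the deposited values (0.10 and 0.05).

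The main probe of Mcm3 gave 5.93, 5.93, 6.05 and 5.97 in WT, 5.53, 5.64, 5.53 and 5.53 in Id1KO and 6.0, 6.03, 6.20 and 6.01 in Id1KO_Zrf1KD. The Id1KO arrays were below all others, at -0.41 (SE 0.05, adjusted p = 3.6e-05) against WT, and Id1KO_Zrf1KD overlapped WT. This gene has a second probe, which overlaps the first over all but 17 bases (chr1:20793119-20793178 and chr1:20793136-20793195, minus strand, mm9, per the array files). The second probe was higher in Id1KO than in WT, by 0.48, and the mean of both gave 0.03, so the direction of Mcm3 in Id1KO against WT depends on the probe. After knockdown both probes were higher than in Id1KO, by 0.50 and 0.56. In Id1KO_Zrf1KD against WT the main probe was at 0.09, not called, and the second was higher by 1.03 (adjusted p = 1.1e-07). Whether Mcm3 stood above WT after knockdown thus depends on the probe too. Mcm5 and Mcm6 were lower in Id1KO, at -0.24 and -0.29, and higher after knockdown, by 0.24 and 0.27. Mcm7 was at -0.0038 in Id1KO against WT, but was called lower after quantile normalization (-0.27) or in the deposited values (-0.29), and it was higher after knockdown by 0.16 (SE 0.07, adjusted p = 0.044). The Mcm7 call was lost on leaving out any 1 of WT 1, WT 3, Id1KO 2, 3 or 4 and Id1KO_Zrf1KD 1, 2 or 4 (adjusted p 0.054 to 0.13).

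Mcm10, which helps to activate the helicase, lay at 4.55, 4.59, 4.71 and 4.58 in WT, 4.60, 4.60, 4.55 and 4.55 in Id1KO and 4.54, 4.57, 4.53 and 4.49 in Id1KO_Zrf1KD. All 3 groups overlapped and no difference was called. The 95% confidence interval of the Id1KO difference from WT was -0.13 to 0.06, and with quantile normalization Mcm10 was called lower in Id1KO, at -0.17. Cdc6, the loader of the helicase, had the noisiest values of the licensing genes, -0.58, -0.78, -0.28 and -0.08 in WT, -0.50, -0.35, -1.07 and -1.04 in Id1KO and -0.25, -0.51, 0.26 and -0.25 in Id1KO_Zrf1KD. Groups overlapped throughout, and for this probe only the difference after knockdown, 0.55 (SE 0.22, adjusted p = 0.042), was called. That call was lost on leaving out any 1 of WT 1, WT 3, Id1KO 3, Id1KO 4 and Id1KO_Zrf1KD 1, 3 or 4, with differences of 0.40 to 0.57 and adjusted p of 0.050 to 0.12. The second Cdc6 probe was called lower in Id1KO than in WT (-0.67, adjusted p = 3.0e-05) and higher after knockdown, by 0.69. With the mean of both probes Cdc6 was called lower in Id1KO too (-0.49, adjusted p = 0.0063).

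Cdt1 and its inhibitor geminin (Gmnn) moved in opposite directions in Id1KO. Cdt1, which brings the helicase to origins, read 6.01, 5.92, 6.06 and 6.01 in WT, 5.48, 5.62, 5.44 and 5.55 in Id1KO and 5.46, 5.52, 5.58 and 5.51 in Id1KO_Zrf1KD. Both Id1KO groups lay below WT without overlap, at -0.48 (SE 0.05, adjusted p = 6.2e-06) for Id1KO, and the difference after knockdown, -0.0045 (SE 0.05), was not called. Gmnn read 2.66, 2.53, 3.06 and 2.98 in WT, 3.45, 3.71, 3.20 and 3.38 in Id1KO and 2.34, 2.37, 2.85 and 2.42 in Id1KO_Zrf1KD. Every Id1KO array was above every other array, by 0.62 (SE 0.16, adjusted p = 0.0038) over WT, and after knockdown it was lower than in Id1KO at -0.94 (SE 0.16, adjusted p = 2.4e-04). Id1KO_Zrf1KD against WT, at -0.31 (adjusted p = 0.1), was called only on leaving out WT 2 (-0.41, adjusted p = 0.047) or Id1KO_Zrf1KD 3 (-0.43, adjusted p = 0.024) and with some other settings. The second Gmnn probe, on the opposite strand by its coordinates, gave 0.42 in Id1KO against WT and -0.18 after knockdown, neither called.

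**Figure D3:**
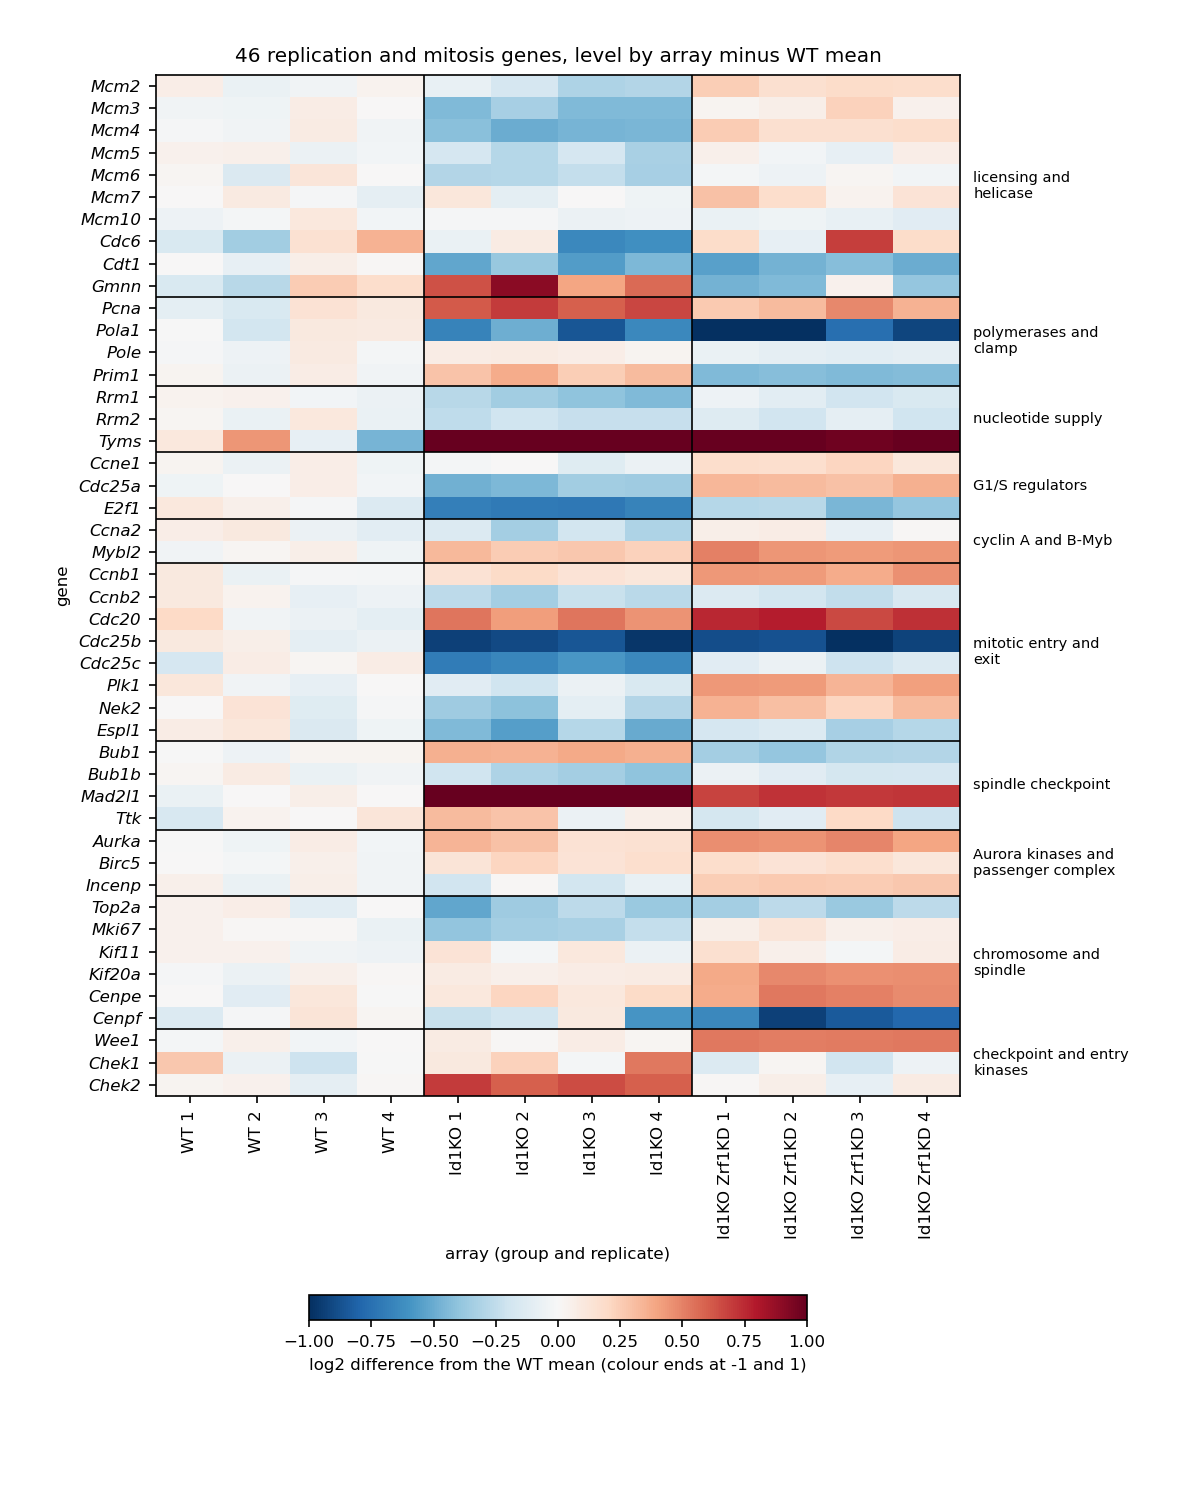
Level of each of the 46 genes on each of the 12 arrays minus the WT mean of that gene, as colour on a log2 scale that ends at -1 and 1, with genes in rows by role and arrays in columns by group. Mcm2 to Mcm6 (Mcm3 by its brighter probe), Cdt1 and E2f1 are blue on the Id1KO arrays, Tyms and Mad2l1 are at or past the red end of the scale there, and Cdc20, Plk1, Aurka, Kif20a and Wee1 are red on the Id1KO_Zrf1KD arrays.

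Among the polymerase genes and the sliding clamp, all 4 were lower after knockdown, while in Id1KO against WT 2 were higher, 1 lower and 1 not called. Pcna, the clamp that holds polymerases on DNA, read 5.87, 5.82, 6.12 and 6.07 in WT, 6.59, 6.67, 6.57 and 6.64 in Id1KO and 6.23, 6.29, 6.46 and 6.32 in Id1KO_Zrf1KD. The 3 groups did not overlap and Id1KO was highest, 0.64 (SE 0.07, adjusted p = 1.2e-05) above WT. Quantile normalization reduced this difference to 0.33, and it was 0.29 in the deposited values. The fall on knockdown, -0.29 (SE 0.07, adjusted p = 0.0043), was not called with quantile normalization (-0.09) or the deposited values (-0.04). Prim1, the catalytic subunit of primase, read 5.05, 4.97, 5.10 and 4.99 in WT, 5.32, 5.40, 5.28 and 5.34 in Id1KO and 4.59, 4.61, 4.59 and 4.60 in Id1KO_Zrf1KD. Id1KO was again highest, by 0.31 (SE 0.04, adjusted p = 5.1e-05), and Id1KO_Zrf1KD lowest, at -0.74 (SE 0.04, adjusted p = 4.3e-08) from Id1KO and -0.43 from WT. The Id1KO difference was 0.10 with quantile normalization and 0.05, not called, with the deposited values.

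Pola1, the catalytic subunit of the polymerase that works with primase, is X-linked and read 3.43, 3.25, 3.54 and 3.53 in WT, 2.77, 2.95, 2.59 and 2.80 in Id1KO and 2.38, 2.42, 2.69 and 2.52 in Id1KO_Zrf1KD. It was lower in Id1KO than in WT at -0.66 (SE 0.10, adjusted p = 7.7e-05) and in Id1KO_Zrf1KD at -0.94 (SE 0.10, adjusted p = 5.5e-06), with no overlap with WT. The further fall on knockdown, -0.27 (SE 0.10, adjusted p = 0.024), had overlapping groups and was lost on leaving out Id1KO 2, Id1KO_Zrf1KD 1 or Id1KO_Zrf1KD 2 (adjusted p 0.070, 0.067 and 0.062). Pole, of the leading-strand polymerase, differed by 0.06 in Id1KO, which was not called, and fell after knockdown at -0.15 (SE 0.04, adjusted p = 0.005). Leaving out WT 3 brought the Id1KO difference of Pole past the threshold (0.09, adjusted p = 0.046), and leaving out WT 2 that of Id1KO_Zrf1KD from WT (-0.11, adjusted p = 0.045). The second Pole probe was called lower in Id1KO than in WT (-0.12), so the direction there depends on the probe. It was also called lower in Id1KO_Zrf1KD, against both Id1KO (-0.14) and WT (-0.26).

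Of the genes that supply nucleotides, Tyms had the largest change of all 46. Thymidylate synthase makes the thymidine nucleotide of DNA. The levels of Tyms were -2.70, -2.36, -2.89 and -3.26 in WT, -1.19, -1.50, -1.12 and -1.08 in Id1KO and -1.69, -1.51, -1.83 and -1.70 in Id1KO_Zrf1KD. All WT arrays were below all others, and Id1KO was 2.99-fold above WT, 1.58 (SE 0.17, adjusted p = 6.3e-06). It was 2.18-fold above WT in Id1KO_Zrf1KD, 1.12 (SE 0.17, adjusted p = 1.2e-04). These values were 0.92 and 0.69 with the deposited values and 1.04 and 0.67 with normexp background correction, all called. The fall on knockdown, -0.46 (SE 0.17, adjusted p = 0.029), was lost on leaving out any 1 of Id1KO 1, 3 or 4 and Id1KO_Zrf1KD 1, 3 or 4 (adjusted p 0.054 to 0.072). Quantile normalization (-0.29) ended this call too. Tyms has 1 probe (chr5:30385578-30385637, minus strand, mm9).

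Ribonucleotide reductase makes deoxyribonucleotides from a large subunit (Rrm1) and a small one (Rrm2). Both were lower in Id1KO, at -0.36 (SE 0.05, adjusted p = 5.3e-05) and -0.23 (SE 0.05, adjusted p = 0.0012), with no overlap with WT. Rrm1 was higher after knockdown by 0.24 (SE 0.05, adjusted p = 0.0012), and the Rrm2 difference of 0.08 (SE 0.05) was not called at the main scaling but was with quantile normalization (0.24) and the deposited values (0.28). Against WT, Rrm1 was lower in Id1KO_Zrf1KD at -0.12 (SE 0.05, adjusted p = 0.048), a call lost on leaving out any array but WT 4, Id1KO 1, Id1KO 4 and Id1KO_Zrf1KD 1 (adjusted p 0.058 to 0.12).

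The regulators of the step from G1 to S phase were higher after knockdown in 3 of 3 cases, Ccne1 by its brighter probe only. E2f1, the transcription factor that activates S-phase genes, read 3.39, 3.33, 3.27 and 3.15 in WT, 2.60, 2.58, 2.57 and 2.61 in Id1KO and 3.0, 3.01, 2.83 and 2.90 in Id1KO_Zrf1KD. The groups were fully separate, with Id1KO lowest at -0.69 (SE 0.06, adjusted p = 9.9e-07), and after knockdown it stood higher by 0.34 (SE 0.06, adjusted p = 3.1e-04) and still below WT. Cdc25a, the phosphatase that activates the S-phase kinase Cdk2, read 3.64, 3.69, 3.75 and 3.66 in WT, 3.21, 3.24, 3.34 and 3.33 in Id1KO and 4.02, 4.0, 3.98 and 4.04 in Id1KO_Zrf1KD. It was lowest in Id1KO, at -0.41 (SE 0.04, adjusted p = 7.9e-06), and its rise on knockdown, 0.73 (SE 0.04, adjusted p = 7.3e-08), was the largest of the 46 genes. Ccne1, cyclin E1, read 5.50, 5.41, 5.54 and 5.43 in WT, 5.44, 5.47, 5.35 and 5.41 in Id1KO and 5.64, 5.63, 5.68 and 5.58 in Id1KO_Zrf1KD. Id1KO overlapped WT, at -0.05 (adjusted p = 0.36), and was called lower with quantile normalization (-0.28). Ccne1 was higher after knockdown by 0.22 (SE 0.05, adjusted p = 0.0013), and its difference from WT, 0.17, fell to 0.01 with quantile normalization. The second Ccne1 probe was called higher in Id1KO than in WT (0.17, adjusted p = 0.018). That probe was not called after knockdown (0.02, adjusted p = 0.80), so both of these results for Ccne1 depend on the probe.

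For Ccne2, the signals stood at -7.12, -7.12, -7.50 and -7.37 in WT, -7.09, -6.88, -6.65 and -6.72 in Id1KO and -7.37, -7.13, -7.35 and -7.42 in Id1KO_Zrf1KD, near the floor of the array and with no order to be read.

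Ccna2 and Mybl2 act in both phases. Cyclin A2 drives S phase and mitotic entry, and its levels were 4.27, 4.30, 4.14 and 4.10 in WT, 4.06, 3.86, 4.01 and 3.89 in Id1KO and 4.26, 4.28, 4.12 and 4.21 in Id1KO_Zrf1KD. Id1KO was below all other arrays, at -0.24 (SE 0.07, adjusted p = 0.0059) against WT, and after knockdown it was higher by 0.26 (SE 0.07, adjusted p = 0.004), overlapping WT. Mybl2 encodes B-Myb, an activator of mitotic genes, and read 7.15, 7.20, 7.24 and 7.14 in WT, 7.50, 7.43, 7.45 and 7.41 in Id1KO and 7.68, 7.62, 7.61 and 7.62 in Id1KO_Zrf1KD. On this probe the groups stood in the order WT, Id1KO and Id1KO_Zrf1KD without overlap. The difference of Id1KO from WT, 0.27 (SE 0.04, adjusted p = 9.2e-05), turned to -0.12 under quantile normalization and -0.08 in the deposited values. The second Mybl2 probe gave the opposite sign in every comparison, at -0.10 for Id1KO against WT and -0.13 after knockdown, neither called, and at -0.23 for Id1KO_Zrf1KD against WT, called lower, where the first gave 0.45. With the mean of both probes the differences were 0.08, 0.02 and 0.11, and the calls of the first and second were lost.

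**Figure D4:**
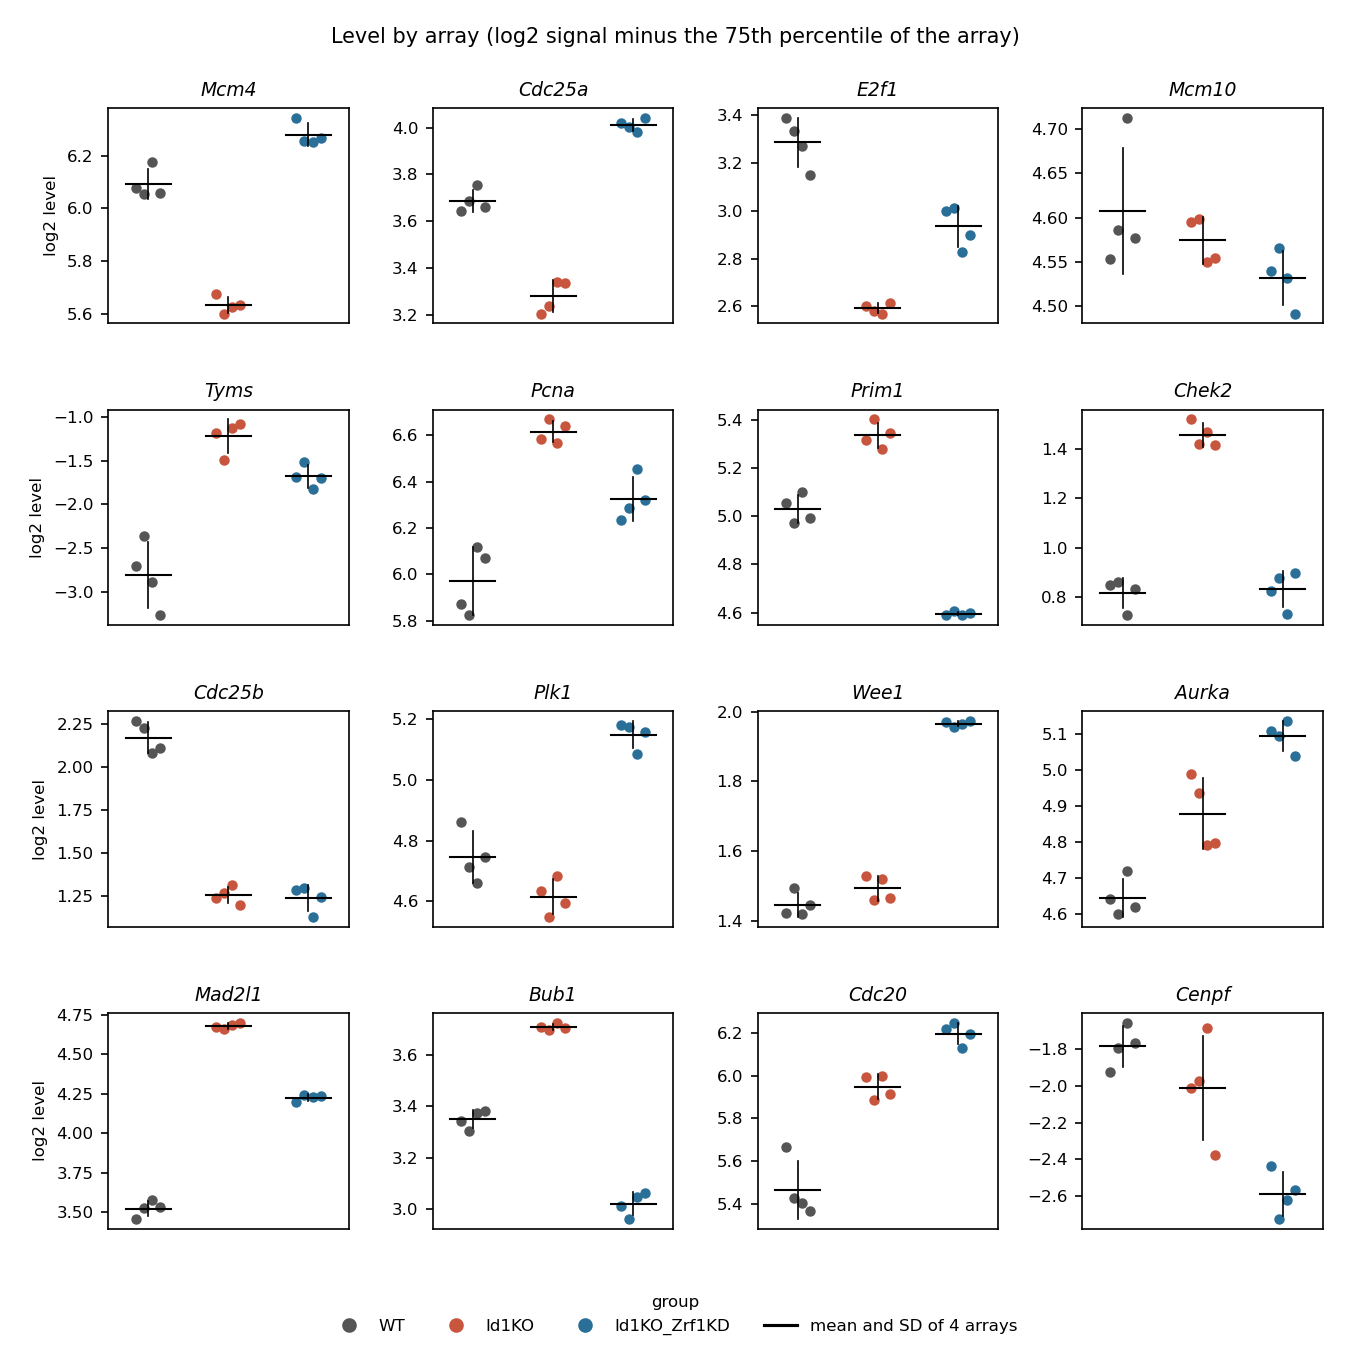
Level of 16 of the genes on each array (points), with the mean and SD of 4 arrays per group in black, each panel on its own log2 axis. Id1KO is lowest for Mcm4, Cdc25a and E2f1, highest for Tyms, Pcna, Prim1, Chek2, Mad2l1 and Bub1, and Id1KO_Zrf1KD is highest for Plk1, Wee1, Aurka and Cdc20.

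The genes of mitotic entry and exit were split in Id1KO, with 2 higher and 6 lower of 8, and none was called lower after knockdown, with 6 higher and 2 not called. Cdc25b and Cdc25c remove the inhibitory phosphates from Cdk1. Cdc25b read 2.27, 2.23, 2.08 and 2.11 in WT, 1.24, 1.27, 1.32 and 1.20 in Id1KO and 1.28, 1.30, 1.13 and 1.25 in Id1KO_Zrf1KD. All Id1KO and Id1KO_Zrf1KD arrays were below all WT arrays, 1.88-fold for Id1KO, -0.91 (SE 0.06, adjusted p = 7.1e-08), and the knockdown difference of -0.02 (SE 0.06) was not called. Cdc25c read 1.14, 1.38, 1.33 and 1.38 in WT, 0.61, 0.65, 0.72 and 0.67 in Id1KO and 1.19, 1.25, 1.10 and 1.17 in Id1KO_Zrf1KD. It was lower in Id1KO at -0.64 (SE 0.06, adjusted p = 1.8e-06) and higher again after knockdown by 0.51 (SE 0.06, adjusted p = 1.3e-05). Its difference between Id1KO_Zrf1KD and WT, -0.13, was called only without WT 1 (-0.19, adjusted p = 0.0064) and with quantile normalization (-0.17) or the deposited values (-0.19).

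Ccnb1 and Ccnb2, the B-type cyclins that activate Cdk1, did not move together. Ccnb1 read 5.16, 5.0, 5.05 and 5.05 in WT, 5.21, 5.25, 5.20 and 5.17 in Id1KO and 5.50, 5.49, 5.44 and 5.52 in Id1KO_Zrf1KD. Levels stood in the order WT, Id1KO and Id1KO_Zrf1KD, and the step on knockdown was 0.28 (SE 0.04, adjusted p = 1.6e-04). The Id1KO difference from WT, 0.15 (SE 0.04, adjusted p = 0.011), turned to -0.05 with both quantile normalization and the deposited values, uncalled, although all 3 Ccnb1 probes were called higher at the main scaling. Ccnb2 was lower in Id1KO at -0.27 (SE 0.05, adjusted p = 4.2e-04), and its difference after knockdown, 0.09, was not called at the main scaling and was called at 0.20 with quantile normalization.

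Plk1, a kinase of mitotic entry and spindle assembly, read 4.86, 4.71, 4.66 and 4.75 in WT, 4.63, 4.55, 4.68 and 4.60 in Id1KO and 5.18, 5.17, 5.08 and 5.16 in Id1KO_Zrf1KD. Id1KO_Zrf1KD lay above all other arrays, by 0.53 (SE 0.05, adjusted p = 3.1e-06) over Id1KO and 0.40 (SE 0.05, adjusted p = 3.4e-05) over WT. The Id1KO difference from WT, -0.13 (SE 0.05, adjusted p = 0.04), had overlapping groups. It was lost on leaving out any 1 of WT 1, 2 or 4, Id1KO 1, 2 or 4 and Id1KO_Zrf1KD 1, 2 or 4 (-0.09 without WT 1, adjusted p 0.050 to 0.11). Nek2, a kinase that separates centrosomes, read 2.05, 2.18, 1.92 and 2.03 in WT, 1.69, 1.64, 1.94 and 1.75 in Id1KO and 2.39, 2.34, 2.26 and 2.36 in Id1KO_Zrf1KD. It was lower in Id1KO at -0.29 (SE 0.07, adjusted p = 0.0043), with overlap at Id1KO 3, and higher after knockdown by 0.58 (SE 0.07, adjusted p = 2.8e-05).

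Cdc20 activates the anaphase-promoting complex, and its levels were 5.66, 5.43, 5.40 and 5.36 in WT, 6.0, 5.89, 6.0 and 5.91 in Id1KO and 6.22, 6.25, 6.13 and 6.20 in Id1KO_Zrf1KD. The 3 groups were separate and in that order, by 0.48 (SE 0.07, adjusted p = 4.7e-05) for Id1KO and a further 0.25 (SE 0.07, adjusted p = 0.0053) after knockdown. Espl1 encodes separase, which cuts cohesin at anaphase, and read 3.87, 3.91, 3.65 and 3.75 in WT, 3.35, 3.25, 3.51 and 3.29 in Id1KO and 3.63, 3.66, 3.46 and 3.51 in Id1KO_Zrf1KD. WT was highest on average, with Id1KO lower at -0.45 (SE 0.08, adjusted p = 3.0e-04). The rise of Espl1 on knockdown, 0.22 (SE 0.08, adjusted p = 0.025), was lost on leaving out Id1KO 2, Id1KO 4, Id1KO_Zrf1KD 1 or Id1KO_Zrf1KD 2 (adjusted p 0.063 to 0.072) and with quantile normalization (0.15). Its call against WT, -0.23 (SE 0.08, adjusted p = 0.021), was lost without WT 1, WT 2, Id1KO_Zrf1KD 3 or Id1KO_Zrf1KD 4 (adjusted p 0.055 to 0.063).

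The spindle checkpoint delays anaphase until all kinetochores are attached, and its genes went different ways. Mad2l1 encodes Mad2, which binds and holds back Cdc20. The Mad2l1 levels were 3.46, 3.53, 3.58 and 3.53 in WT, 4.67, 4.66, 4.69 and 4.70 in Id1KO and 4.20, 4.25, 4.23 and 4.24 in Id1KO_Zrf1KD. The 3 groups were far apart relative to their spread, with Id1KO 2.23-fold above WT, 1.16 (SE 0.04, adjusted p = 4.0e-10), and a fall on knockdown of -0.45 (SE 0.04, adjusted p = 6.9e-07). All 3 Mad2l1 probes on chromosome 6 agreed in direction, with log2 changes of 0.82 to 1.16 in Id1KO against WT and -0.55 to -0.45 after knockdown. Bub1, a kinetochore kinase, read 3.34, 3.30, 3.38 and 3.38 in WT, 3.71, 3.70, 3.73 and 3.71 in Id1KO and 3.01, 2.96, 3.05 and 3.06 in Id1KO_Zrf1KD. It was higher in Id1KO than in WT by 0.36 (SE 0.04, adjusted p = 4.9e-06) and fell below WT after knockdown, at -0.69 (SE 0.04, adjusted p = 2.8e-08) from Id1KO and -0.33 from WT.

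Bub1b, which encodes BubR1 of the same complex, moved the other way from Bub1, lower in Id1KO at -0.31 (SE 0.05, adjusted p = 3.1e-04) and higher after knockdown by 0.18 (SE 0.05, adjusted p = 0.0099). The latter call was lost with quantile normalization (0.10). Against WT, Bub1b in Id1KO_Zrf1KD (-0.13, adjusted p = 0.056) was called on leaving out WT 3, Id1KO 1 or Id1KO_Zrf1KD 1 (adjusted p 0.043, 0.039 and 0.045). Ttk, the kinase that starts checkpoint signalling, was not called in any comparison, at 0.15 (SE 0.11), -0.23 (SE 0.11) and -0.08 (SE 0.11). Without Id1KO 3 or Id1KO_Zrf1KD 3 the knockdown difference of Ttk was -0.30 (adjusted p = 0.034) or -0.32 (adjusted p = 0.015).

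The Aurora kinases and the passenger complex steer chromosome attachment and cytokinesis. Of 3 genes tested, 2 were higher in Id1KO and 2 after knockdown, and all 3 were higher in Id1KO_Zrf1KD than in WT. Aurka read 4.64, 4.60, 4.72 and 4.62 in WT, 4.99, 4.93, 4.79 and 4.80 in Id1KO and 5.11, 5.09, 5.13 and 5.04 in Id1KO_Zrf1KD. Groups were separate in the order WT, Id1KO and Id1KO_Zrf1KD, and the whole step was 0.45 (SE 0.05, adjusted p = 2.0e-05). The part between WT and Id1KO, 0.23 (SE 0.05, adjusted p = 0.0023), was 0.08 under quantile normalization and 0.06 in the deposited values, neither called. Birc5, which encodes survivin, was higher in Id1KO by 0.16 (SE 0.04, adjusted p = 0.0025), a difference that turned to -0.13 under quantile normalization and -0.17 in the deposited values, both called lower. Incenp, the scaffold of the complex, was higher after knockdown by 0.37 (SE 0.05, adjusted p = 7.2e-05), and its Id1KO difference of -0.11 was called only without Id1KO 2 (-0.15, adjusted p = 0.018), with normexp background correction (-0.15) and with the other scalings (-0.35 and -0.33). The Aurkb probe read -6.70, -6.69, -7.14 and -7.01 in WT, -6.74, -6.54, -6.28 and -6.27 in Id1KO and -7.03, -6.75, -6.99 and -6.98 in Id1KO_Zrf1KD, near the floor of the array.

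Chromosome and spindle genes went both ways. Top2a, the topoisomerase that untangles sister chromatids, read 4.30, 4.33, 4.16 and 4.27 in WT, 3.75, 3.91, 4.0 and 3.89 in Id1KO and 3.92, 4.0, 3.90 and 4.0 in Id1KO_Zrf1KD. Both Id1KO groups were below WT without overlap, at -0.38 (SE 0.06, adjusted p = 1.9e-04) and -0.31 (SE 0.06, adjusted p = 9.0e-04). Cenpe, a kinetochore motor, read 4.36, 4.23, 4.46 and 4.34 in WT, 4.45, 4.56, 4.45 and 4.54 in Id1KO and 4.72, 4.87, 4.85 and 4.82 in Id1KO_Zrf1KD. It was highest in Id1KO_Zrf1KD, by 0.31 (SE 0.06, adjusted p = 4.6e-04) over Id1KO. The smaller Id1KO difference, 0.15 (SE 0.06, adjusted p = 0.032), was lost on leaving out WT 1, WT 2, WT 4, Id1KO 2 or Id1KO 4 (0.11 to 0.16, adjusted p 0.052 to 0.090) and with quantile normalization (0.02). Kif20a, a motor of cytokinesis, read 3.98, 3.93, 4.04 and 4.0 in WT, 4.07, 4.04, 4.06 and 4.07 in Id1KO and 4.37, 4.47, 4.44 and 4.45 in Id1KO_Zrf1KD. It was higher after knockdown, by 0.37 (SE 0.04, adjusted p = 5.4e-06), while WT and Id1KO overlapped.

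Cenpf, a large kinetochore and matrix protein, read -1.92, -1.79, -1.66 and -1.77 in WT, -2.01, -1.97, -1.69 and -2.38 in Id1KO and -2.43, -2.72, -2.62 and -2.57 in Id1KO_Zrf1KD. Id1KO_Zrf1KD was below all other arrays, at -0.58 (SE 0.13, adjusted p = 0.0016) from Id1KO and -0.80 (SE 0.13, adjusted p = 1.7e-04) from WT. The first of these calls was lost with quantile normalization (-0.30) and the deposited values (-0.16). Cenpf in Id1KO (-0.23, adjusted p = 0.13) was called lower only without Id1KO 3 (-0.33, adjusted p = 0.020) and with those 2 scalings. Mki67, the proliferation marker Ki-67, was lower in Id1KO at -0.32 (SE 0.04, adjusted p = 4.2e-05) and higher after knockdown by 0.40 (SE 0.04, adjusted p = 8.2e-06), on both of its probes. Kif11, the motor that pushes spindle poles apart, differed by 0.04 (SE 0.06), 0.03 (SE 0.06) and 0.07 (SE 0.06) in the 3 comparisons, none called.

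The 3 checkpoint kinases each had a pattern of their own. Wee1, which phosphorylates and holds back Cdk1, read 1.42, 1.49, 1.42 and 1.45 in WT, 1.53, 1.46, 1.52 and 1.47 in Id1KO and 1.97, 1.96, 1.96 and 1.97 in Id1KO_Zrf1KD. Its WT and Id1KO arrays overlapped, and Id1KO_Zrf1KD lay above both, by 0.47 (SE 0.04, adjusted p = 3.8e-07) over Id1KO. The levels of Chek2, the kinase activated by ATM after DNA breaks, were 0.85, 0.86, 0.73 and 0.83 in WT, 1.52, 1.42, 1.47 and 1.42 in Id1KO and 0.82, 0.88, 0.73 and 0.90 in Id1KO_Zrf1KD. Id1KO stood alone, 0.64 (SE 0.05, adjusted p = 5.1e-07) above WT, and after knockdown Chek2 was lower than in Id1KO at -0.62 (SE 0.05, adjusted p = 7.2e-07), overlapping WT. Chek1, the kinase activated by ATR at stalled forks, read -3.39, -3.71, -3.87 and -3.66 in WT, -3.56, -3.42, -3.68 and -3.13 in Id1KO and -3.79, -3.64, -3.85 and -3.71 in Id1KO_Zrf1KD. Those groups overlapped and no difference was called, at 0.21 in Id1KO (adjusted p = 0.15) and -0.30 after knockdown (adjusted p = 0.051). Chek1 was called without WT 1 in Id1KO against WT (0.30, adjusted p = 0.045). After knockdown it was called without WT 1, WT 3 or Id1KO 3 (adjusted p 0.033, 0.045 and 0.022).

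Probes of 1 gene could be compared where a gene had more than 1 kept probe. These 11 genes were Birc5, Ccnb1, Ccne1, Cdc6, Gmnn, Incenp, Mad2l1, Mcm3, Mki67, Mybl2 and Pole. For Mad2l1, Ccnb1, Mki67 and Incenp all probes had the same sign in all 3 comparisons. Mcm3 in Id1KO against WT and Mybl2 in Id1KO_Zrf1KD against WT had 1 probe called higher and 1 called lower. Birc5, Ccne1, Mybl2 and Pole also had probes on both sides of 0 in Id1KO against WT. The probes of Ccnb1 differed in size, from 0.15 to 0.64 in Id1KO against WT.

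With the slide as a block, the counts of genes called higher and lower were 14 and 22 in Id1KO against WT, 25 and 12 in Id1KO_Zrf1KD against Id1KO, and 20 and 12 in Id1KO_Zrf1KD against WT. The shares of all genes called with this block are not given, so these counts can be set only beside the main counts of the same genes. Cdc6 was then called lower in Id1KO (-0.31, adjusted p = 0.0026) and higher in Id1KO_Zrf1KD than in WT (0.37, adjusted p = 0.0013). Ttk was called higher in Id1KO (0.15, adjusted p = 0.029) and lower after knockdown (-0.15, adjusted p = 0.035), and Chek1 lower after knockdown (-0.32, adjusted p = 0.039). Against WT, Mcm3 was called higher (0.12, adjusted p = 0.039) and Gmnn lower (-0.21, adjusted p = 0.032) in Id1KO_Zrf1KD. The calls of Mcm7 after knockdown (adjusted p = 0.077) and of Rrm1 in Id1KO_Zrf1KD against WT (adjusted p = 0.056) were lost.

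Quantile normalization and the deposited values changed a call or moved a called value by over 1.5 times for 20 and 21 of the 46 genes in Id1KO against WT, for 12 and 12 after knockdown, and for 17 and 19 in Id1KO_Zrf1KD against WT. With normexp background correction these numbers were 7, 2 and 4. Several falls in Id1KO were larger with quantile normalization and the deposited values, as for Mcm3 (-0.64 and -0.65), Mcm4 (-0.71 and -0.71), Mcm5 (-0.46 and -0.42), Mcm6 (-0.65 and -0.63), Rrm2 (-0.49 and -0.49), Ccnb2 (-0.52 and -0.49) and Plk1 (-0.28 and -0.25). The rise of Cdc20 in Id1KO was smaller (0.22 and 0.20). After knockdown the rises of Mcm6 (0.57 and 0.54), Mcm7 (0.36 and 0.37), Cdc20 (0.40 and 0.39) and Mybl2 (0.57 and 0.48) were larger, and Birc5, at -0.01 and not called at the main scaling, was called higher (0.23 and 0.22).

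In Id1KO_Zrf1KD against WT the same scalings brought Mcm10 (-0.22 and -0.22), Gmnn (-0.41 and -0.41), Pole (-0.24 and -0.27) and Bub1b (-0.23 and -0.26) to a call and ended those of Nek2 (0.21 and 0.18) and Birc5 (0.09 and 0.05). They moved Rrm1 to -0.25 and -0.27, Ccnb1 to 0.27 and 0.25, Ccnb2 to -0.32 and -0.31 and Incenp to 0.14 and 0.12. Plk1 was at 0.26 and Cdc25a at 0.22 with quantile normalization, and Aurka at 0.27, Cenpe at 0.31, Cenpf at -0.41 and Espl1 at -0.36 with the deposited values. Normexp background correction ended the calls of Ccnb1 (0.09), Aurka (0.18) and Cenpe (0.12) in Id1KO against WT and brought Chek1 to a call there (0.20) and after knockdown (-0.28).

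**Figure D5:**
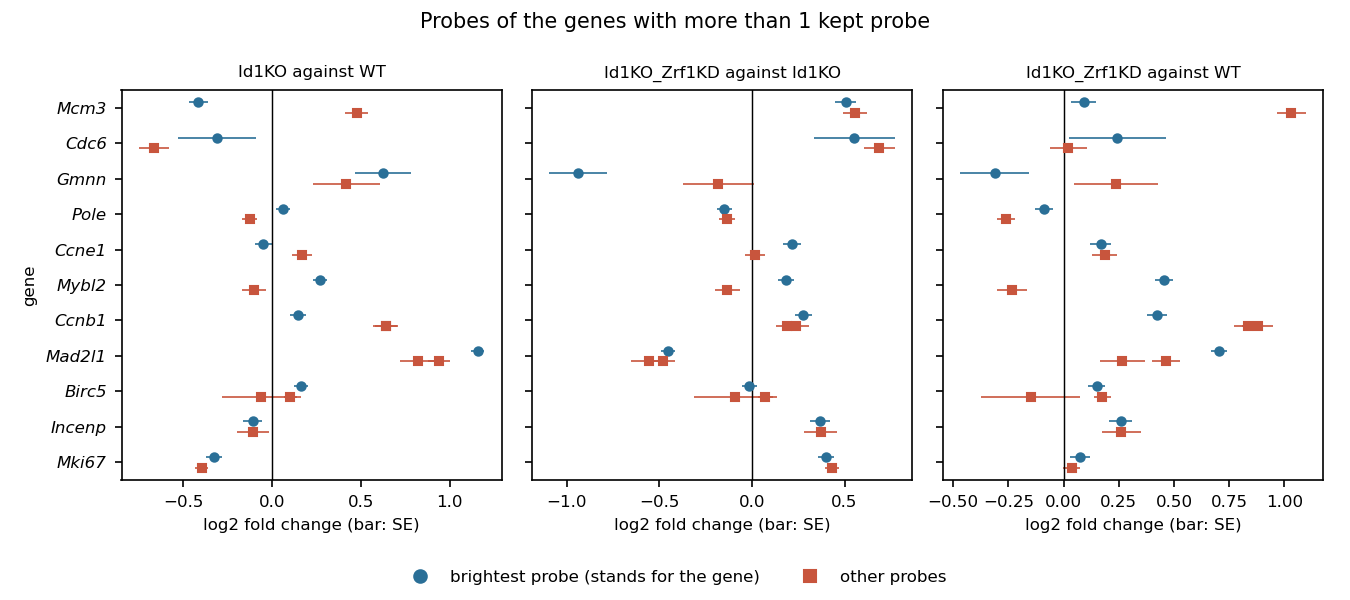
Log2 fold change of each kept probe (points, with the SE as a bar) of the 11 genes with more than 1, in 3 comparisons, with the brightest probe in blue and the others in red. The probes of Mad2l1 lie between 0.82 and 1.16 in Id1KO against WT, while those of Mcm3 lie on both sides of 0, at -0.41 and 0.48.

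Other genes of the same processes were read from fixed lists. Of 57 other replication genes 56 were tested, and in Id1KO against WT 22 were higher and 15 lower, with a median of 0.04. These shares, 39.3% and 26.8%, were near the 42.5% and 29.6% of all genes. After knockdown 21 were higher and 20 lower, 37.5% and 35.7%, against 32.3% and 39.8% of all genes. In Id1KO_Zrf1KD against WT 16 and 17 were, 28.6% and 30.4%, against 32.4% and 32.2%, or 14 and 25 with quantile normalization, 25% and 44.6%, against 30.2% and 33.2%. Prim2, the regulatory subunit of primase, was 20.3-fold higher in Id1KO than in WT, 4.35 (SE 0.16, adjusted p = 1.0e-09), and 16.3-fold higher in Id1KO_Zrf1KD. Rfc3, of the clamp loader, was 1.90-fold higher in Id1KO. Pold2, Asf1b and Cdc45 were the lowest there, at -0.66, -0.63 and -0.54. After knockdown the flap nuclease gene Fen1 (0.82), the histone mRNA binder Slbp (0.72) and Mcm9 (0.67) were the highest. The Mcm9 value there ran from 0.25 to 0.97 over the scalings, so its rank depends on the scaling. The histone chaperone Asf1a (-1.40), Mcm8 (-1.11) and Rpa3 of the single-strand binder (-0.83) were the lowest. Against WT, Dbf4, the partner of the kinase Cdc7, was at 1.02 and Mcm9 at 0.91 (0.46 to 0.94 over the scalings). In the same comparison Asf1a, Gins2 and Cdc7 were at -0.82, -0.51 and -0.42.

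Of 96 other mitosis genes 94 were tested, with 33 higher and 31 lower in Id1KO, 32 and 33 after knockdown, and 32 and 31 in Id1KO_Zrf1KD against WT. As shares these were 35.1% and 33.0%, 34.0% and 35.1%, and 34.0% and 33.0%, against 42.5% and 29.6%, 32.3% and 39.8%, and 32.4% and 32.2% of all genes. With quantile normalization the splits were 28 and 39, 35 and 36, and 25 and 42, or 29.8% and 41.5%, 37.2% and 38.3%, and 26.6% and 44.7%, against 35% and 34.8%, 36.5% and 32.9%, and 30.2% and 33.2%. The kinetochore genes Cenpq and Cenpp and the anaphase-promoting complex gene Cdc26 were the highest in Id1KO, at 1.25, 1.13 and 1.15. Anapc10 of the same complex (-1.81, well above background on 1 of 4 Id1KO arrays), Mad2l2 (-0.86) and Nek6 (-0.85) were the lowest. The Anapc10 value ran from -2.13 to -0.51 over the scalings, so its rank depends on the scaling. After knockdown Kifc1, Cdca5 and Pttg1 were the highest, at 0.74, 0.67 and 0.66, and Cenpk, Cep55 and Kif18a the lowest, at -1.11, -0.86 and -0.65. Against WT, Ncapg2 of condensin II was at 1.02, Cdca5 at 0.98 and Cenpq at 0.78. In the same comparison Anapc10, the cohesin gene Stag2 and Ncapg of condensin I were at -1.70, -1.29 and -0.70. That of Anapc10 ran from -1.70 to -0.59 over the scalings.

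Of 23 regulators of the E2F and DREAM families 22 were tested, with 8 higher and 10 lower in Id1KO, 10 and 7 after knockdown, and 7 and 7 in Id1KO_Zrf1KD against WT. These shares were 36.4% and 45.5%, 45.5% and 31.8%, and 31.8% and 31.8%, against 42.5% and 29.6%, 32.3% and 39.8%, and 32.4% and 32.2% of all genes. After knockdown they were 36.4% and 31.8% with quantile normalization, against 36.5% and 32.9% of all genes. With the deposited values they were 36.4% and 27.3%, against 35.4% and 33.6%. Myb was higher in Id1KO by 0.74 (SE 0.08, adjusted p = 6.2e-06) and lower after knockdown at -1.84 (SE 0.08, adjusted p = 5.1e-09). Nfyc, a subunit of the CCAAT-binding factor NF-Y, was higher after knockdown by 1.04 (SE 0.04, adjusted p = 2.8e-09), and Nfya, another subunit, by 0.55, after a difference of -0.53 in Id1KO. Rbbp4 and Tfdp2 were higher in Id1KO (0.62 and 0.42), and Rbl2 and Lin54 lower (-0.67 and -0.49). E2f8 was higher after knockdown (0.54), and Rbl1 and Rbbp4 lower (-0.68 and -0.44). Against WT, Nfyc, Tfdp1 and E2f3 were the highest at 1.18, 0.69 and 0.65, and Myb, Rbl2 and Lin54 the lowest at -1.10, -1.0 and -0.93.

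All 22 genes of the DNA damage checkpoint list were tested, with 9 higher and 9 lower in Id1KO, 40.9% each against 42.5% and 29.6% of all genes, and 8 and 7 after knockdown, 36.4% and 31.8% against 32.3% and 39.8%. In Id1KO_Zrf1KD against WT 7 were higher and 2 lower, 31.8% and 9.09% against 32.4% and 32.2%, or 5 and 5 with quantile normalization or the deposited values, 22.7% each against 30.2% and 33.2% or 29.0% and 33.8%. Rad9b, Atm and Atr were higher in Id1KO, at 0.89, 0.52 and 0.39, and the repair genes Bard1, Brca2 and Brca1 lower, at -0.52, -0.51 and -0.45. After knockdown Brca2 (0.47), Mre11a (0.41) and H2afx (0.41) were higher, and Atr (-0.39), Rad1 (-0.38) and Rad50 (-0.36) lower. Against WT, Rad9b, Nbn and Rad17 were higher (0.70, 0.48 and 0.35), and Bard1 and Rad1 lower (-0.42 and -0.20).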

How the data were processed

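Total RNA of 12 cultures was amplified from oligo-dT primers, labelled with Cy3 and hybridised to one-colour arrays, per the labels. Per the file headers, Agilent Feature Extraction 10.7.3.1 made the scanner files, whose intensity columns hold a background-subtracted and detrended signal per spot, not normalized between arrays, and whose flag columns are 0 or 1. Probe coordinates are those of the deposited files, build mm9. The authors also deposited a table of log2 values, matched to spots by number, and no source used here states its normalization.

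The log2 processed signal minus the 75th percentile of each array was averaged over a probe's spots without outlier spots. A probe was kept, as 30885 of 55681 were, where at least 50% of its spots exceeded background clearly on each of the 4 arrays in some group. The brightest kept probe stood for each of 22593 gene names, 217 of which lack a value on an array. None of these 217 is a replication or mitosis gene described here. limma 3.58.1 in R 4.3.3 (data.table, version 1.17.8) fitted 1 mean per group, two-sided, with Benjamini-Hochberg adjustment at 0.05. The fit was tested on simulated data. The number of arrays limits the precision.

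The members and lists were chosen with earlier results of these data known. Given on every array were, per comparison, the 8 highest and 8 lowest genes called, and always Mcm2, Mcm10, Cdc6, Pcna, Ccne1, Ccne2, E2f1, Mybl2, Ccna2, Ccnb1, Plk1, Aurka, Wee1, Chek1 and Chek2. The values of Aurkb, which was not tested, were added after they were seen. Of the other lists the 3 highest and 3 lowest genes called were named. Some genes that these rules would name are not reported here. Alternatives were quantile normalization, normexp with an offset of 50, the deposited values, no filter on dim probes or a stricter one, other probe rules, a slide or replicate block, leaving out each array, and only the 2 groups compared.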

Additional observations from a re-analysis of the deposited data

Results flagged for a closer look

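Within the groups of 4 arrays, 138 sets of values (46 genes in 3 groups) were examined for an array far from the others, and 3 stood out by Dixon's test, where chance flags about 1 in 20. The Mcm3 level of 5.64 in Id1KO 2 was the highest of Id1KO, with the nearest array at 5.53. The Mcm3 level of 6.20 in Id1KO_Zrf1KD 3 was the highest of that group, with the nearest at 6.03. The Gmnn level of 2.85 in Id1KO_Zrf1KD 3 was the highest of its group, with the nearest at 2.42.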

How the results depend on the processing

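Over all alternatives, 29, 31 and 31 of the 46 genes kept their direction and their side of the threshold in Id1KO against WT, Id1KO_Zrf1KD against Id1KO and Id1KO_Zrf1KD against WT. The count of genes called higher in Id1KO against WT, 13, was 8 with quantile normalization, 7 with the deposited values and 20 of 60 probes with every probe a feature of its own. The direction turned for Mcm3 (0.031) in Id1KO against WT with the mean over probes. It turned in the same comparison for Ccnb1 (-0.050 and -0.053), Birc5 (-0.13 and -0.17) and Mybl2 (-0.12 and -0.083) with quantile normalization and the deposited values, and for Birc5 (0.23 and 0.22) in Id1KO_Zrf1KD against Id1KO. With the mean over probes it also turned for Mad2l2 (0.011) and Rbl1 (-0.54) in Id1KO against WT and for Mad2l2 (0.053) and Tfdp2 (-0.22) in Id1KO_Zrf1KD against WT. Bard1 in Id1KO_Zrf1KD against Id1KO was -0.0050 with the deposited values. The cause was not tested.

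Leaving out each array in turn gave 12 to 14 higher and 20 to 22 lower in Id1KO against WT, 23 to 26 and 8 to 11 in Id1KO_Zrf1KD against Id1KO, and 18 to 19 and 10 to 13 in Id1KO_Zrf1KD against WT. Whether replicate numbers pair the arrays was checked: over genes, the deviations of same-numbered arrays correlated with a median of -0.20 (lowest -0.44) and those of arrays sharing a slide with 0.24, and 1 array of 12 correlated best with its own number. No pairing by number showed, but same-numbered arrays mostly lay on different slides, so the check cannot exclude one. With the replicate block 12 genes were higher and 20 lower, 25 and 9, and 18 and 13 in the 3 comparisons. For this block and for the fits without 1 array, the shares of all genes called are not given. Their counts can be set only beside the main counts of the same genes. Signal over background limits dim genes such as Ccne2 and Aurkb.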
